A study of Homo sapiens with 8 samples.

Results

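The responses of SK-MEL-5 cells to the drug THZ1 and to knockdown of the transcription factor MITF were set against each other gene by gene. SK-MEL-5 is 1 established human melanoma cell line. The value examined was the difference of differences: the log2 change from DMSO to THZ1 minus the log2 change from siCtrl to siMITF. It drew on all 8 arrays of the series, in 4 groups of 2. The DMSO cells received the solvent at 25 uM, and the THZ1 cells received THZ1 at 250 nM together with the same solvent for 6 h. The siCtrl cells were transfected with a control siRNA that targets no gene, and the siMITF cells with siRNA against MITF. How long the DMSO cells were treated and when the transfected cells were harvested is not given in the labels, so the responses may have been read at different times. Of 49495 probe sets, 45278 carried 1 gene symbol, and these represented 18244 genes. The 11947 genes whose brightest probe set reached a mean signal of 39.2 were tested, and all of them are members of the comparison.

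THZ1 is a covalent inhibitor of CDK7, a kinase of the general transcription factor TFIIH. CDK7 phosphorylates the tail of RNA polymerase II early in transcription and also activates cell cycle kinases. MITF is the lineage transcription factor of melanocytes. It binds E-box sequences and drives genes of pigment synthesis, melanosome transport, survival and proliferation. An acute block of a general transcription kinase lowers short-lived transcripts first, while loss of a lineage factor acts through its target genes and through what follows from them.

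Changes are given relative to the median gene of each array, on the log2(signal + 16) scale, as means of 2 arrays per group. The deposited signals are described as normalized to cell number, and on that scale the median tested gene had a change of -0.16 with THZ1 and of -0.63 with siMITF. A relative change becomes the change on the deposited scale by adding -0.20 for THZ1 and -0.63 for siMITF, which adds 0.43 to the difference. A gene that rose by less than 0.63 with siMITF relative to the median gene therefore lay below its siCtrl level per cell. In bulk RNA, fewer cells with a transcript and less of it per cell cannot be told apart. ERCC spike-in signals had medians of 48.0 to 53.9 on the drug arrays and 27.6 to 30.7 on the siRNA arrays, so the sets look scaled separately and each treatment was compared only with its own control. Arrays of 1 group correlated at 0.9955 to 0.9961 across tested genes. All 8 melanocyte markers with a probe set were tested, with summed signals of 41770 to 45260 with DMSO, 36800 to 45450 with THZ1, 27320 to 31410 with siCtrl and 17480 to 21690 with siMITF. The cell type label was also checked against other cell types, of which 2 of 7 keratinocyte, 3 of 8 fibroblast and 1 of 8 leukocyte markers were tested. Over the 8 arrays KRT10 had signals of 257 to 754.5, SFN 44.25 to 149 and CD68 77.2 to 191. LUM had 613 to 2983, DCN 45.25 to 284.7 and PDGFRA 32.3 to 56.7. The other listed markers with a probe set, among them KRT5, KRT14, COL1A1, COL3A1 and PTPRC, lay below the tested range. The 8 fibroblast markers with a probe set, of which LUM, DCN and PDGFRA were tested, had summed signals of 2405 to 2888 with DMSO and 2700 to 3493 with THZ1. Their sums were 1572 to 1909 with siCtrl and 772 to 1012 with siMITF, and their part in the results was not tested. No label says that the paired arrays of a group are separate cultures, and if they are not, the p-values below reflect technical spread alone.

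The targeted transcript was checked first. MITF had signals of 3436 and 3936 with siCtrl and 1747 and 1168 with siMITF, and 4670 and 5669 with DMSO and 3311 and 4178 with THZ1. It was lower in both treated arrays of each pair of groups. Relative to the median gene MITF fell by 0.72 with siMITF (limma, adjusted p = 0.000325) and by 0.27 with THZ1 (adjusted p = 0.0497), so it is itself among the genes that fell in both. The difference was 0.45 (SE 0.14, adjusted p = 0.0218), with the larger decrease after knockdown. After a lowess fit of each array against mean signal, described below, the MITF changes were -0.50 and -0.66 and the difference of 0.16 (adjusted p = 0.362) was not called. CDK7, the kinase that THZ1 inhibits, fell by 0.41 with THZ1 (adjusted p = 0.00148) and had a change of 0.03 with siMITF (95% interval -0.13 to 0.18). The CDK7 difference of -0.43 (adjusted p = 0.0057) was 0.0019 on the deposited scale.

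Over the tested genes the changes were nearly unrelated, with a Pearson r of 0.036 and a Spearman rho of 0.038 over 11947 genes, which are not independent replicates. THZ1 changed 4635 genes (38.8% of those tested) at an adjusted p under 0.05, and siMITF changed 5276 (44.2%). Both changed 2315 genes (19.4%), which were 49.9% of the THZ1 list and 43.9% of the siMITF list. Among these 2315, relative to the median gene, 1186 genes (9.93% of those tested) moved the same way and are called shared, of which 287 (2.4%) also differed in size, and 1129 (9.45%) moved opposite ways and are called opposed. The difference itself passed the test for 4966 genes (41.6%), higher under THZ1 than under siMITF for 2557 (21.4%) and lower for 2409 (20.2%). A called difference of at least 1 log2 unit was found for 494 genes (4.13%), and there the balance shifted, with 107 genes higher (0.896%) and 387 lower (3.24%). Genes changed by 1 treatment, not called for the other and with a called difference numbered 1520 for THZ1 (12.7%) and 1812 for siMITF (15.2%), and these are called THZ1-specific and siMITF-specific. The split depended on the reference level: with no centring, on the deposited scale, 765 genes were shared, all of them lower, 14 were opposed, 78 were THZ1-specific and 1178 siMITF-specific, and the difference was higher for 1175 and lower for 113. A further 218 genes (1.82%) had a called difference although neither change was called alone. The scatter of both changes shows these classes around the axes.

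**Figure D1:**
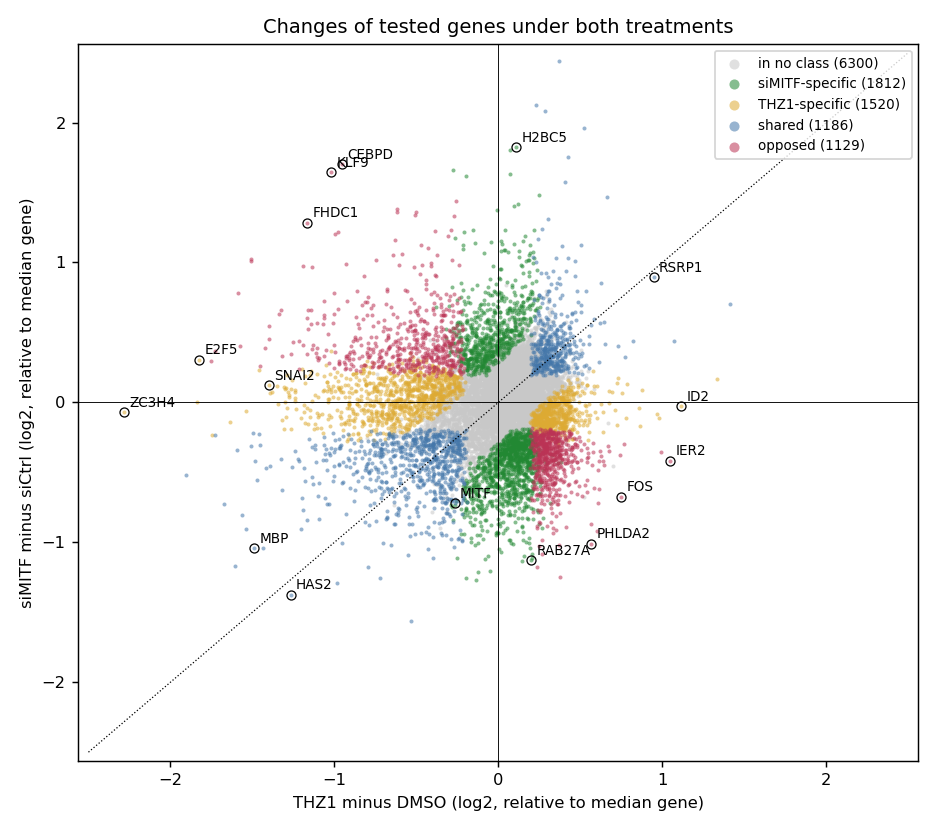
Log2 change with THZ1 (x axis, against DMSO) and with siMITF (y axis, against siCtrl) for 11947 tested genes, each a mean of 2 arrays per group relative to the median gene, with the dotted line marking equal changes. Opposed genes (1129) fill the upper left and lower right, shared genes (1186) the other corners, and KLF9 and CEBPD lie farthest along the opposed diagonal.

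The direction of the difference moved with brightness. From the dimmest to the brightest quintile of tested genes, the median siMITF change ran 0.21, 0.09, -0.04, -0.18 and -0.21, while the median THZ1 change ran 0.09, -0.01, -0.07, -0.03 and 0.17. A higher difference was called for 1.05% of the dimmest quintile and 54.1% of the brightest, and a lower one for 19.1% and 5.73%. Opposed genes that rose with THZ1 had a median signal of 658, and opposed genes that fell with THZ1 had a median of 106, against 166 over all tested genes. The part of brightness in these classes was not tested. Values are therefore given below also after each array was fitted with a lowess curve against mean signal, which takes this trend out and left 1920 genes higher and 2517 lower. Quantile normalization gave 1685 higher and 2902 lower.

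**Figure D2:**
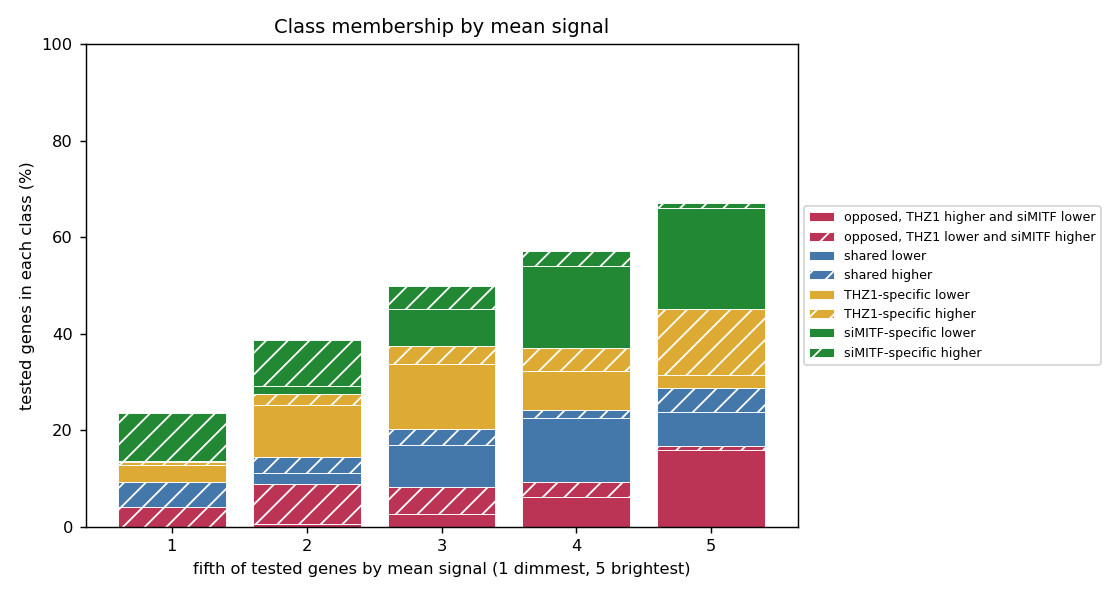
Share of tested genes (y axis, percent) in each class for 5 groups of genes by mean signal (x axis, dimmest to brightest, 2389 or 2390 genes each). The opposed class with THZ1 higher makes up 15.9% of the brightest group and 0.0418% of the dimmest, while the siMITF-specific higher class makes up 1.09% and 9.87%.

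The strongest opposition was a set of 525 genes (4.39%) that fell with THZ1 and rose with siMITF, with medians of -0.50 and 0.39. The count was 322 without siMITF replicate 2 and 337 without siMITF replicate 1. KLF9 and CEBPD, both transcription factors, had its largest differences. KLF9, a Kruppel-like factor induced by glucocorticoids, had signals of 630 and 720 with DMSO, 248 and 317 with THZ1, 258 and 320 with siCtrl, and 664 and 537 with siMITF. CEBPD, a leucine zipper factor of the acute phase response, had signals of 543 and 766 with DMSO, 253 and 313 with THZ1, 344 and 387 with siCtrl, and 893 and 688 with siMITF. For both genes the groups did not overlap in either comparison, and the treated arrays lay below their controls with THZ1 and above them with siMITF. KLF9 fell 2.03-fold with THZ1 (log2 change -1.02, limma adjusted p = 9.82e-06) and rose 3.13-fold with siMITF (1.65, adjusted p = 1.39e-06). The KLF9 difference was -2.67 (SE 0.10, adjusted p = 2.21e-06), and its 2 other probe sets had a median difference of -1.76. CEBPD fell 1.94-fold and rose 3.26-fold, a difference of -2.66 (SE 0.12, adjusted p = 3.94e-06), with a median of -2.76 over 4 other probe sets.

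DLX2, a homeobox factor of the developing neural crest and forebrain, behaved the same way. Its signals were 216 and 267 with DMSO, 82.7 and 115 with THZ1, 130 and 149 with siCtrl, and 255 and 183 with siMITF. The groups stood apart in both comparisons, with changes of -0.98 and 1.21 and a difference of -2.19 (SE 0.11, adjusted p = 5.68e-06). NFATC2, a transcription factor activated by calcineurin, had changes of -1.0 and 1.20 and a difference of -2.2. The other leading genes encode structural and metabolic proteins. LMCD1, a LIM domain protein, fell by 1.51 with THZ1 and rose by 1.02 with siMITF, a difference of -2.53, although 3 other probe sets had a median of -0.82. CLDN14, a tight junction claudin, had changes of -1.51 and 1.01 and a difference of -2.52. FHDC1, a formin-related protein of actin and microtubules, had changes of -1.17 and 1.28 and a difference of -2.45. NAPEPLD, a lipase that makes endocannabinoid-like amides, had changes of -1.59 and 0.79 and a difference of -2.38. On the deposited signals NAPEPLD overlapped between siCtrl (164 and 226) and siMITF (258 and 180), and the other 7 genes named here did not overlap in either comparison.

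The mirror set held 604 genes (5.06%) that rose with THZ1 and fell with siMITF, with smaller medians of 0.31 and -0.37. Its count fell to 303 without DMSO replicate 1, 307 without THZ1 replicate 2, 323 without siMITF replicate 2, 362 without DMSO replicate 2 and 367 without siCtrl replicate 2. Immediate early genes were among its leaders. IER2, an immediate early response gene, had signals of 358 and 445 with DMSO, 589 and 907 with THZ1, 274 and 362 with siCtrl, and 163 and 127 with siMITF. FOS, a subunit of the AP-1 factor, had signals of 707 and 766, 911 and 1286, 492 and 594, and 224 and 195 in the same order. In both genes the THZ1 arrays lay above DMSO and the siMITF arrays below siCtrl without overlap. IER2 rose 2.07-fold with THZ1 (1.05, adjusted p = 1.87e-05) and fell by 0.42 with siMITF (adjusted p = 0.00376), a difference of 1.46 (SE 0.12, adjusted p = 3.44e-05). FOS changed by 0.75 and -0.67, a difference of 1.42, and 3 other probe sets had a median of 1.39.

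In the remaining leaders of this set the siMITF decrease was the larger component. DYNC1I1, an intermediate chain of the dynein motor, had changes of 0.37 and -1.25 and a difference of 1.62 (adjusted p = 3.57e-05). PHLDA2, an imprinted pleckstrin homology protein, had changes of 0.57 and -1.01, and C11orf96 had 0.60 and -0.92. ALDH9A1, an aldehyde dehydrogenase, had changes of 0.56 and -0.87, PBK, a mitotic kinase, 0.24 and -1.18, and CAPZA2, a subunit that caps actin filaments, 0.37 and -1.02. On the deposited signals the siRNA groups stood apart for all 8 leaders of this set, while the drug groups stood apart only for IER2, FOS and ALDH9A1. After the lowess scaling CAPZA2 was called only with siMITF, with changes of 0.24 and -0.79.

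**Figure D3:**
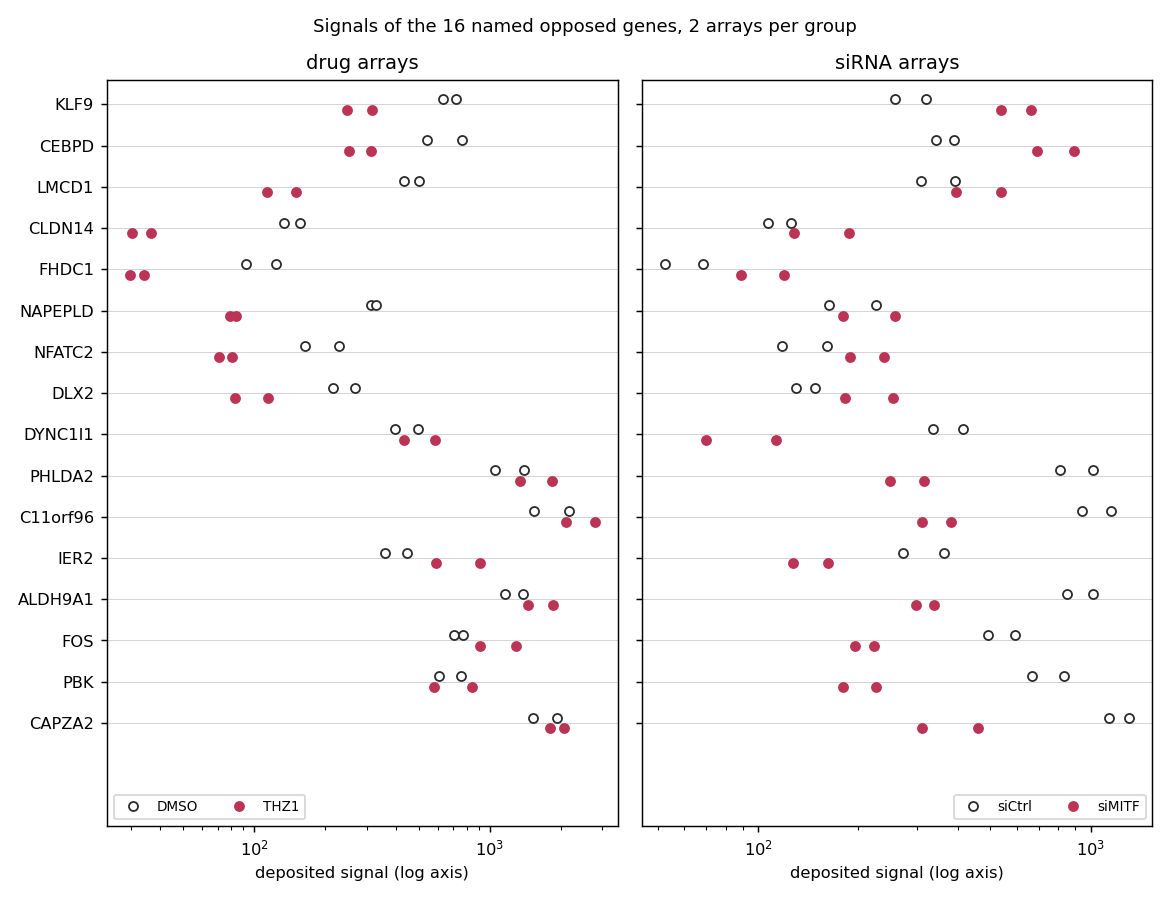
Deposited signals (log axis) of 16 opposed genes on the drug arrays (left, DMSO open and THZ1 filled) and the siRNA arrays (right, siCtrl open and siMITF filled), 2 arrays per group. The upper 8 genes shift left with THZ1 and right with siMITF, and the lower 8 shift left with siMITF, with overlap of the drug groups for 5 of them.

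Promoter sequences are shown for DLX2 and IER2, since among the 24 leading opposed and siMITF-specific lower genes these were the members whose promoter window held an E-box of the kind MITF binds. The windows run from 250 bases before to 50 bases after the RefSeq start site (GRCh38.p14), and 17 of the 24 genes had one. The letters searched were CATGTG, whose other strand reads CACATG, and the palindrome CACGTG. Capitals mark the matches. The DLX2 window lies at chr2:172102851-172103150 on the minus strand, with CATGTG at -135 and CACGTG at -45. The IER2 window lies at chr19:13150161-13150460 on the plus strand, with CACATG at -18.
DLX2: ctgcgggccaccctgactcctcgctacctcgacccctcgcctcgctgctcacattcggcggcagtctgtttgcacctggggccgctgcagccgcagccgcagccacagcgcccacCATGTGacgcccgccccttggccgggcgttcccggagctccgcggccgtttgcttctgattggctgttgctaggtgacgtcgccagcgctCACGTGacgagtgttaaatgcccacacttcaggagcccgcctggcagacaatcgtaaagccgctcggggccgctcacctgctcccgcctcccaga
IER2: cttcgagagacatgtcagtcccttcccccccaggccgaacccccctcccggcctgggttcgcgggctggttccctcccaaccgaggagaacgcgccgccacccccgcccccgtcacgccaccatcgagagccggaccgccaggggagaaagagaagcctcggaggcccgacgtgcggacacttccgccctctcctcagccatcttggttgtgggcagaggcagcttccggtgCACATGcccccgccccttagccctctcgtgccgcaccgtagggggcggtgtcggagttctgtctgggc
The windows belong to an opposed gene of each direction, since DLX2 rose and IER2 fell with siMITF. A match describes these letters and is not a binding site.

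Over whole classes the share of windows with CATGTG or CACGTG ran from 14.6% to 19.1%, around 16.5% of the 9808 tested genes with a window. The share was 17.4% among opposed genes that rose with THZ1 and 15.9% among those that fell with it. It was 18.1% among shared lower genes, 15.2% among shared higher genes, 16.5% and 14.6% among THZ1-specific lower and higher genes, and 14.6% among siMITF-specific higher genes. The siMITF-specific lower genes had 19.1%. CACGTG, with or without CATGTG, was found in 14.1% of the siMITF-specific lower windows and 12.2% of the shared lower windows, against 10.2% of all tested windows. CATGTG was found in 6.01% and 7.21%, against 7.06%. The TATA letters TATAAA were in 8.84% of the shared higher windows against 5.92% overall. None of these shares was tested.

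In both directions few opposed calls held on the deposited scale, although signs were kept more often in 1 direction. Of the 604 genes higher with THZ1, 599 kept opposite signs on the deposited scale. The siMITF decreases of the 604 necessarily stayed below siCtrl there, and the THZ1 shift of -0.20 took 5 genes below DMSO. Of the 525 genes lower with THZ1, 93 kept opposite signs, and for 432 the siMITF value lay below siCtrl on the deposited scale. Tested on the deposited scale, 14 genes passed as opposed. The 5 of them higher with THZ1 were IER2, KLF10, ID2, BRD2 and CSMD1, of which 2 are among the 604. The 9 lower with THZ1 were KLF9, CEBPD, FHDC1, NFATC2, DLX2, DDIT4, PDE7B, PNRC1 and MAML3. These 14 were singled out after their values were seen. With quantile and lowess scaling also required, 169 of the 604 and 365 of the 525 remained opposed, and 169 and 86 of them had opposite signs on the deposited scale as well. Leaving out 1 array moved the count of 1129 opposed genes by over 1.5 times in 3 cases, to 687 without DMSO replicate 1, 645 without siMITF replicate 2 and 732 without THZ1 replicate 2.

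Shared decreases were the larger part of the agreement, with 745 genes lower in both (6.24%) at medians of -0.45 and -0.41. HAS2, a hyaluronan synthase, had signals of 1253 and 1715 with DMSO, 452 and 599 with THZ1, 828 and 1084 with siCtrl, and 258 and 194 with siMITF. Both treated groups lay well below their controls. HAS2 fell by 1.27 with THZ1 (limma adjusted p = 6.64e-06) and by 1.37 with siMITF (adjusted p = 9.54e-06), and the difference of 0.11 (95% interval -0.15 to 0.37) was not called. PPARGC1A, the coactivator of mitochondrial biogenesis and a known MITF target, had signals of 770 and 992 with DMSO, 336 and 439 with THZ1, 712 and 877 with siCtrl, and 282 and 211 with siMITF. The groups did not overlap, and PPARGC1A fell by 0.95 and 1.0, a difference of 0.05 (95% interval -0.18 to 0.28). MBP, myelin basic protein and also listed as an MITF target, fell by 1.49 and 1.04. The MBP difference of -0.45 passed the test (adjusted p = 0.00992) but was -0.01 on the deposited scale.

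Other shared decreases included genes with and without a called difference. TRIM63, a ubiquitin ligase, fell by 0.99 and 1.29, and ZC3H12C, a CCCH zinc finger protein, by 1.16 and 0.84, with no called difference for either. ZNF114, a zinc finger gene, fell by 1.60 and 1.17, and OSGIN1, an oxidative stress response gene, by 1.44 and 1.04. Their differences of -0.43 and -0.40 were called (adjusted p = 0.00935 and 0.043), and the OSGIN1 value was 0.036 on the deposited scale. C21orf91 fell by 1.54 and 0.90, and its other probe set had a difference of the opposite sign (0.48 against -0.64). Because both shifts to the deposited scale are negative, all 745 shared decreases necessarily lay below their controls there as well. Of the 745, 392 remained shared decreases after both quantile and lowess scaling. Without siCtrl replicate 2 the shared total of 1186 was 761 and the 745 shared decreases were 477, and without siMITF replicate 2 these were 710 and 484.

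The 441 shared increases (3.69%) were smaller, at medians of 0.32 and 0.37. They numbered 226 without siMITF replicate 2, 229 without DMSO replicate 2, 278 without siMITF replicate 1, 284 without DMSO replicate 1 or siCtrl replicate 2, and 293 without THZ1 replicate 1. RSRP1, an arginine and serine rich protein, had signals of 244 and 215 with DMSO, 333 and 471 with THZ1, 141 and 206 with siCtrl, and 234 and 185 with siMITF. The drug groups stood apart, while the siRNA groups overlapped before the arrays were centred. RSRP1 rose by 0.95 and 0.89, and the difference of 0.05 (95% interval -0.38 to 0.49) was not called. SAT1, which acetylates polyamines, rose by 0.64 and 0.57, and CCN1, a matrix signalling protein, by 0.62 and 0.57. BNIP3, a mitophagy receptor induced by hypoxia, rose by 0.57 and 0.55, NTS, neurotensin, by 0.58 and 0.60, and GOLGA8A by 0.63 and 0.85. LSMEM1 rose more with THZ1 (1.41 and 0.71) and ARRDC3, an arrestin-like regulator of receptor turnover, more with siMITF (0.66 and 1.47). Their called differences were 0.70 (limma adjusted p = 0.00132) and -0.80 (limma adjusted p = 0.00254). The other ARRDC3 probe set changed by 0.07 and 0.67. The shared increases are relative to a falling median gene: 58 of the 441 lay above both controls on the deposited scale. For NTS, SAT1, CCN1 and BNIP3 the siMITF change there was -0.04, -0.06, -0.07 and -0.08.

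THZ1-specific decreases numbered 919 (7.69%), with a median THZ1 change of -0.55 beside 0.06 with siMITF. ZC3H4, a zinc finger protein that restrains transcription of non-coding RNA, had signals of 433 and 459 with DMSO, 59.2 and 75.0 with THZ1, 323 and 403 with siCtrl, and 264 and 175 with siMITF. The THZ1 arrays lay far below DMSO, and the lower siMITF signals followed the shift of the median gene. ZC3H4 fell 4.87-fold with THZ1 (-2.28, adjusted p = 1.8e-06) and its siMITF change was -0.07 (95% interval -0.31 to 0.17). The difference was -2.21 (adjusted p = 1.54e-05), against -0.39 in its other probe set. SNAI2, a neural crest and mesenchymal transcription factor, had signals of 1426 and 1701 with DMSO, 410 and 615 with THZ1, 1269 and 1615 with siCtrl, and 1129 and 889 with siMITF. It fell by 1.40 with THZ1 without overlap, beside 0.12 with siMITF (95% interval -0.05 to 0.30). E2F5, a repressive cell cycle factor, fell by 1.82 beside 0.31 with siMITF (adjusted p = 0.0693), a difference of -2.13. PLEKHA5, a pleckstrin homology protein, fell by 1.84, and ZNF362 by 1.46. The other ZNF362 probe set changed by -0.13 with THZ1, with a difference of -0.36. After the lowess scaling, SNAI2, E2F5, PLEKHA5 and ZNF362 were opposed, with siMITF changes of 0.36, 0.43, 0.26 and 0.46. CASP8AP2, a factor of histone mRNA processing and apoptosis signalling, fell by 1.75, ZBED5 by 1.64 and TMEM177, a mitochondrial membrane protein, by 1.54, all with siMITF intervals that include 0.

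The 601 THZ1-specific increases (5.03%) had a median of 0.34 beside -0.10 with siMITF. They numbered 339 without THZ1 replicate 2, 378 without DMSO replicate 1 and 392 without DMSO replicate 2. ID2, a dominant negative helix-loop-helix protein, had signals of 789 and 1022 with DMSO, 1535 and 1899 with THZ1, 709 and 828 with siCtrl, and 549 and 418 with siMITF. The THZ1 arrays lay above DMSO without overlap, and ID2 rose 2.17-fold (1.11, adjusted p = 7.47e-06). SNAPC3, a subunit of the complex that starts small nuclear RNA genes, rose by 1.33, with a difference of 1.17 that was 0.28 over 3 other probe sets. Genes of the transcription machinery were also here, since BRD2, a BET bromodomain protein, rose by 0.98 and POLR2A, the largest subunit of RNA polymerase II, by 0.78. Other POLR2A probe sets rose by 0.11 and 0.54 with THZ1, with differences of 0.04 and 0.44. EBPL rose by 0.86, ARGLU1, a splicing regulator, by 0.86, PRKAR2B, a regulatory subunit of protein kinase A, by 0.72, and OAT, ornithine aminotransferase, by 0.64. On the deposited scale, where the THZ1 shift is only -0.20, 600 of the 601 stayed above DMSO. So did 2103 of all 2115 genes called higher with THZ1. Tested there with no centring, 3 genes were THZ1-specific increases, and 1 of them was among the 601. The class was sensitive to the trend with brightness, and 137 of the 601 remained in it after both quantile and lowess scaling. ID2 was then a shared increase under lowess (siMITF change 0.23), and OAT fell in no class.

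The siMITF-specific decreases formed the largest class, 1133 genes (9.48%), with a median siMITF change of -0.44 beside 0.08 with THZ1. RAB27A, the small GTPase that tethers melanosomes at the cell periphery and a known MITF target, had signals of 1236 and 1468 with siCtrl, 472 and 316 with siMITF, 1582 and 2038 with DMSO, and 1561 and 2066 with THZ1. The siRNA groups stood far apart and the drug groups overlapped. RAB27A fell 2.18-fold with siMITF (-1.13, adjusted p = 2.8e-05), with a THZ1 change of 0.20 (95% interval -0.01 to 0.40) and a difference of 1.33 (SE 0.13, adjusted p = 7.41e-05). CKS1B, a cofactor of cell cycle kinases, fell by 1.04, with signals of 1074 and 1290 with siCtrl, 418 and 307 with siMITF, and 923 to 1079 on the 4 drug arrays. HMGB3, a chromatin protein, fell by 1.09, LYPLA1, a depalmitoylating enzyme, by 1.13, CHMP2B, a subunit of the ESCRT-III complex, by 1.01 and PI15, a secreted peptidase inhibitor, by 1.08. PRADC1 fell by 1.11 and CA8, a carbonic anhydrase-related protein, by 1.0, and after lowess scaling both were opposed, with THZ1 changes of 0.28 and 0.24. Of the 1133 genes, 403 remained in the class after both quantile and lowess scaling.

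The 679 siMITF-specific increases (5.68%) had a median of 0.46 beside -0.06 with THZ1, and they were dim genes, with a median signal of 82.8. They numbered 438 without siMITF replicate 2. H2BC5, a histone H2B gene, had signals of 252 and 314 with siCtrl, 760 and 578 with siMITF, 432 and 535 with DMSO, and 405 and 502 with THZ1. DEPTOR, an inhibitor of mTOR, had signals of 71.5 and 99.3 with siCtrl, 260 and 169 with siMITF, 54.6 and 65.4 with DMSO, and 45.1 and 62.9 with THZ1. In both genes the siMITF arrays lay above siCtrl without overlap and the drug groups overlapped. H2BC5 rose 3.54-fold (1.82, adjusted p = 9.78e-07) and DEPTOR 3.48-fold (1.80, adjusted p = 6.6e-06), with THZ1 changes of 0.11 and 0.07. YPEL2 rose by 1.66, OPN3, a non-visual opsin, by 1.62 and NRCAM, a neuronal cell adhesion molecule, by 1.63. FLRT3, a membrane ligand of axon guidance, rose by 1.22, BEX1 by 1.23 and GDPD1, a phosphodiesterase of lysophospholipids, by 1.17, of which GDPD1, FLRT3 and BEX1 stood at 0.54, 0.59 and 0.60 on the deposited scale. There 170 of the 679 lay above siCtrl.

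**Figure D4:**
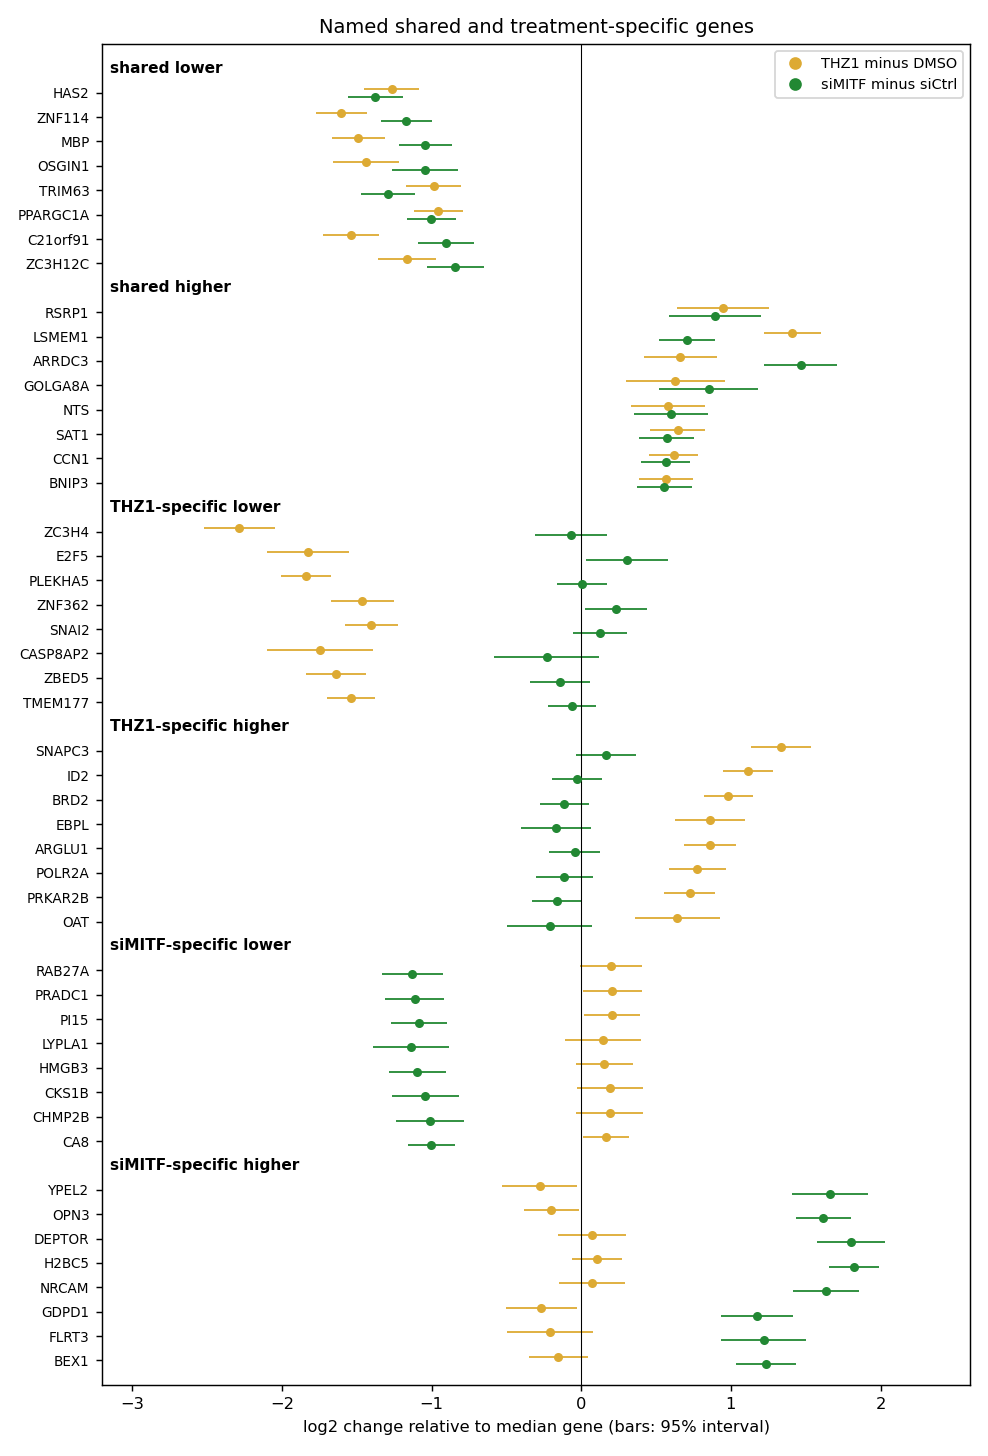
Log2 changes relative to the median gene with THZ1 (gold) and siMITF (green), 2 arrays per group, with 95% intervals from limma, for 8 leading genes of each shared and treatment-specific class. In the shared classes the points of a gene lie on 1 side of 0, while in the specific classes the interval of the other treatment lies at or near 0.

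Gene lists are given below by counts and medians, to be read beside all tested genes, of which 21.4% had a higher and 20.2% a lower difference (1920 and 2517 of 11947 genes after lowess). With no centring every list's difference is 0.43 higher, and the balance over all tested genes there was 1175 higher and 113 lower. Of 43 tested MITF targets outside pigmentation, 20 were siMITF-specific decreases, 8 were shared decreases and 3 were opposed with THZ1 lower, and the median changes were 0.04 with THZ1 and -0.42 with siMITF. The difference was higher for 26 and lower for 7 (16 and 7 after lowess), with a median of 0.48 against 0.01 over all tested genes (0.21 against 0.01 after lowess). The siMITF-specific members included ASAH1, acid ceramidase (0.18 and -0.97), BCL2A1, a survival gene (-0.0014 and -0.84), RRAGD, a GTPase of mTOR signalling (0.15 and -0.64), and TRPM1, melastatin (0.01 and -0.89). The other TRPM1 probe set changed by -0.17 and -0.28, a difference of 0.11. The 8 shared members included PPARGC1A and MBP. DUSP4, a MAPK phosphatase, fell by 0.42 with siMITF alone. The opposed members included TBX2, a T-box factor (-1.22 and 0.44), and CDKN1A, the cell cycle inhibitor known as p21 (-0.46 and 0.53), and SNAI2 fell with THZ1 alone. On the deposited scale TBX2 and CDKN1A had siMITF changes of -0.19 and -0.11. The 8 tested melanocyte lineage markers did not share a direction: 3 rose under both treatments and 1, MITF, fell under both. SOX10 was opposed, and MLANA, a melanosome antigen, was a THZ1-specific increase that was in no class after lowess. The other MLANA probe set changed by 0.20 with THZ1 and -0.92 with siMITF, a difference of 1.12. With siMITF 4 of the 8 markers rose and 1 fell, against 19.5% and 24.7% of all tested genes. Their median siMITF change was 0.25 (-0.39 on the deposited scale), and the difference was higher for 2 and lower for 2 (0 and 3 after lowess, also unadjusted).

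Among 14 tested pigmentation genes the difference was higher for 6 and lower for 1 (5 and 3 after lowess), against 21.4% and 20.2% of all tested genes. SLC45A2, a melanosome transporter, had signals of 2248 and 2755 with DMSO, 2294 and 2951 with THZ1, 1465 and 1734 with siCtrl, and 540 and 416 with siMITF. The drug groups overlapped and the siMITF arrays lay far below siCtrl. Relative to the median gene SLC45A2 rose by 0.26 with THZ1 and fell by 1.08 with siMITF, a difference of 1.35 (adjusted p = 1.95e-05). GPR143, the melanosomal receptor of ocular albinism, had changes of 0.33 and -0.90, and SLC24A5, a melanosomal exchanger, of 0.27 and -0.55. After lowess SLC45A2 and GPR143 were siMITF-specific, with THZ1 changes of 0.10 and 0.17. In 26 tested genes of melanosome biogenesis and transport the difference was higher for 10 and lower for 4, but 6 and 6 after lowess. RAB32, a GTPase of melanosome cargo sorting, fell by 1.21 with siMITF, and HPS6 and BLOC1S5, subunits of the complexes that sort this cargo, fell by 1.26 and 0.92 with THZ1 (differences of 1.09, -1.36 and -1.04).

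Of 25 tested lineage transcription factors, the difference was lower for 14 and higher for 3 (16 and 1 after lowess), with medians of -0.27 with THZ1, 0.09 with siMITF and -0.37 for the difference. With no centring it was lower for 4 and higher for 1, and the median was 0.06. The 6 opposed members were all lower with THZ1 and higher with siMITF: SOX10, TFAP2C, LEF1, TBX2, FOXD3 and ERBB3. SOX10, the neural crest factor that activates MITF, had signals of 418 and 566 with DMSO, 151 and 214 with THZ1, 178 and 260 with siCtrl, and 219 and 181 with siMITF. The drug groups stood apart and the siRNA groups overlapped on the deposited signals, where the siMITF change was -0.11. Its relative changes were -1.16 and 0.52, a difference of -1.68, but its other probe set had a difference of 0.12, so the probe sets disagree. ERBB3, a neuregulin receptor of the neural crest, had signals of 468 and 601 with DMSO, 318 and 451 with THZ1, 382 and 486 with siCtrl, and 821 and 613 with siMITF. The siMITF arrays lay above siCtrl, and ERBB3 had changes of -0.27 and 1.33 and a difference of -1.60 (adjusted p = 1.55e-05). Its 2 other probe sets had differences of -1.69 and 0.39, so they disagree in sign. SOX2, a stem cell factor from the list of the undifferentiated state, changed by -0.82 and 0.90, but its other probe set by -0.05 and 0.38. In that list of 21 tested genes the difference was lower for 8 and higher for 0 in limma (8 and 1 at an unadjusted p under 0.05, 7 and 1 after lowess). Without centring 1 was lower and 0 higher in limma (3 and 1 unadjusted), with a median of 0.28. It included THBS1, thrombospondin (-0.05 and 1.14), JUN (-0.38 and 0.44) and IL6 (-0.78 and 0.46). The other IL6 probe set changed by 0.0057 and 0.33.

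Early response factors divided between both directions. Of 37 tested, the difference was higher for 13 and lower for 14 (12 and 16 after lowess), with 4 opposed genes higher with THZ1 and 6 lower. Without centring 8 were higher and 2 lower. IER2, FOS and KLF10, a TGF-beta inducible Kruppel-like factor (0.99 and -0.35), rose with THZ1 and fell with siMITF, whereas KLF9, CEBPD and JUN did the reverse. KLF10 was called only with THZ1 after lowess. Of 22 feedback genes of the MAPK pathway, 8 were lower and 2 higher (11 and 0 after lowess, 12 and 0 there unadjusted), with a median difference of -0.18. Without centring limma called 0 of these differences (3 higher and 1 lower at an unadjusted p under 0.05), and the median was 0.25. SPRED1, an inhibitor of RAS signalling, changed by -0.86 and 0.45, and PHLDA1 and CCND1, cyclin D1, fell by 0.70 and 0.40 with THZ1 alone, although the median difference over 3 other probe sets was 0.24 for PHLDA1 and 0.12 for CCND1. A single other probe set of each was lower, at -1.13 for PHLDA1 and -0.48 for CCND1.

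Transcription machinery genes moved in both directions, and no difference between complexes was tested. In 38 tested genes of Integrator, small nuclear RNA activation and 3' end formation the difference was lower for 16 and higher for 5 (16 and 4 after lowess), with 10 THZ1-specific decreases. With no centring it was lower for 2 and higher for 5, and the median was 0.17 in place of -0.27. INTS6, an Integrator subunit, had signals of 322 and 379 with DMSO, 74.1 and 86.5 with THZ1, 242 and 320 with siCtrl, and 263 and 199 with siMITF. The drug groups stood apart and the siRNA groups overlapped, and INTS6 fell by 1.73 with THZ1 and rose by 0.37 with siMITF relative to the median gene (-0.27 on the deposited scale). Its difference was -2.09, with a median of -0.99 over 6 other probe sets, of which 1 had the opposite sign (0.82). CSTF3, a cleavage stimulation factor, fell by 1.30 with THZ1 alone, but its 4 other probe sets had a median difference of 0.17. Among 25 elongation factors and kinases 8 had a higher and 7 a lower difference. The named members of this group, those with the lowest adjusted p, did not share a direction. HEXIM2, which holds P-TEFb inactive, changed by -1.32 and 0.33, and MEPCE, which caps the RNA of that complex, by -1.30 and -0.10. BRD3 changed by -1.14 and 0.66, and BRD2 by 0.98 and -0.11. Of 55 RNA polymerase II, Mediator and TAF subunits, 15 were higher and 11 lower, but 8 and 14 after lowess, shares near those of all tested genes (21.4% and 20.2%). MED9, a Mediator subunit, fell under both (-1.67 and -0.73), while TAF4 and MED7 fell with THZ1 (-0.90 and -0.81) beside siMITF changes of 0.17 and -0.02. In 8 tested CDK7 and TFIIH genes 2 were higher and 2 lower (0 and 2 after lowess, 2 and 2 there unadjusted), also near those shares. CCNH, the cyclin partner of CDK7, changed by 0.30 and -0.26, and GTF2H1 fell by 0.85 and 0.35. After lowess CCNH was in no class and GTF2H1 was called only with THZ1.

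Zinc finger genes of the ZNF series, the longest list, were lower with THZ1 than with siMITF in most called cases. Of 288 tested, 145 had a lower and 13 a higher difference (122 and 14 after lowess), with medians of -0.25 with THZ1, 0.14 with siMITF and -0.39 for the difference. They held 72 THZ1-specific decreases, 42 opposed genes with THZ1 lower and 24 siMITF-specific increases. ZNF627 had signals of 105 and 137 with DMSO, 53 and 77.3 with THZ1, 63.8 and 80.5 with siCtrl, and 92.1 and 73.3 with siMITF. The drug groups stood apart, the siRNA signals overlapped, and the relative changes were -0.56 and 0.80. ZNF518B changed by -1.75 and 0.29 and ZNF581 by -0.91 and 0.30. On the deposited scale the median of the list was -0.45 with THZ1 and -0.49 with siMITF, and the median difference was 0.05 there, with 7 genes higher and 4 lower. As a list it was dim, with a median signal of 76.0.

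Proliferation genes fell with siMITF in nearly every case and with THZ1 in part. Over all tested genes 24.7% fell with siMITF and 21.1% with THZ1. Of 52 tested genes of mitosis, spindle and kinetochore, 49 fell with siMITF and 19 with THZ1, and 18 were shared decreases and 28 siMITF-specific decreases. Their median changes were -0.13 and -0.67, and the difference was higher for 34 and lower for 2 (33 and 2 after lowess), with a median of 0.52 (0.41 after lowess). BIRC5, survivin, had signals of 1690 and 1991 with siCtrl, 660 and 524 with siMITF, 1676 and 1871 with DMSO, and 1503 and 1953 with THZ1. The siRNA groups stood apart and the drug groups overlapped, with changes of -0.98 and 0.15, and its 10 other probe sets had a median difference of 1.09. PRC1, which bundles the central spindle, changed by -0.89 with siMITF and 0.15 with THZ1, and DLGAP5 by -0.88 and -0.05. Among 57 genes of G1/S and DNA replication 49 fell with siMITF and 30 with THZ1, with 25 shared decreases. The difference there was higher for 29 and lower for 8 (20 and 12 after lowess). TK1, thymidine kinase, and TYMS, thymidylate synthase, fell with siMITF alone (-0.90 and -0.72), and E2F5 had a difference of the other sign.

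Relative to the median gene, DNA repair and p53 genes had more lower than higher differences. Among 31 tested genes of homologous recombination and the Fanconi pathway 12 had a lower and 4 a higher difference (10 and 4 after lowess), with 9 shared decreases. Without centring 3 were higher and 0 lower in limma (5 and 1 unadjusted), and the median difference was 0.22 in place of -0.22. PALB2, the partner of BRCA2, fell by 1.24 with THZ1 beside -0.05 with siMITF, whereas FANCI and CHEK1, a checkpoint kinase, fell by 0.78 and 0.67 with siMITF beside 0.06 and 0.12. Of 25 tested p53 targets, 15 had a lower and 5 a higher difference (14 and 4 after lowess), and 7 were opposed with THZ1 lower: CDKN1A, BBC3, TNFRSF10B, XPC, PHLDA3, TRIAP1 and POLH. The medians were -0.15 with THZ1, 0.23 with siMITF and -0.48 for the difference. CDKN1A had signals of 1296 and 1508 with DMSO, 743 and 1038 with THZ1, 929 and 1176 with siCtrl, and 1092 and 860 with siMITF. The drug groups stood apart and the siRNA groups overlapped before centring. PMAIP1, the pro-apoptotic gene NOXA, moved the other way (0.54 and -0.55), PLK2 rose with siMITF alone (1.23), and SESN2 rose under both (0.23 and 1.0). Without centring 3 of the 25 were higher and 0 lower in limma (6 and 2 unadjusted), and the medians were -0.35 with THZ1, -0.41 with siMITF and -0.05 for the difference.

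Bright housekeeping lists had higher differences that shrank once the trend with brightness was removed. Of 71 tested subunits of oxidative phosphorylation, 64 had a higher and 0 a lower difference in limma (66 and 0 at an unadjusted p under 0.05), with 40 THZ1-specific increases, 22 opposed genes and medians of 0.37 and -0.12. After lowess 19 were higher and 0 lower (31 and 1 unadjusted), and the median difference went from 0.49 to 0.17. NDUFS7, a complex I subunit, had signals of 692 and 868 with DMSO, 767 and 1105 with THZ1, 698 and 819 with siCtrl, and 416 and 329 with siMITF. The drug groups overlapped on the deposited signals, the siRNA groups did not, and the changes were 0.44 and -0.37. Of 36 proteasome subunits, 28 were higher and 0 lower in limma (31 and 1 unadjusted, 11 and 1 after lowess), led by PSMD14, a deubiquitinating subunit (0.17 and -0.54). Of 45 genes of the lysosome, V-ATPase and autophagy, 25 were higher and 2 lower (16 and 3 after lowess). MAP1LC3B, the autophagosome protein LC3B, rose by 0.64 and fell by 0.45, and ATP6V0D1, a proton pump subunit, rose by 0.33 and fell by 0.79, and both were opposed after lowess as well.

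Ribosomal and splicing genes did not keep a direction. Over all tested genes 17.7% rose with THZ1 and 19.5% with siMITF. Of 67 cytosolic ribosomal protein genes, 50 rose with THZ1 and 49 with siMITF relative to the median gene, with 35 shared increases, medians of 0.28 and 0.29 and 5 higher and 0 lower differences in limma, also without adjustment of p. After lowess their medians were -0.03 and 0.17 with 1 higher and 23 lower, and on the deposited scale they were 0.08 and -0.34. Of 75 mitochondrial ribosomal protein genes 39 were higher and 2 lower, but 12 and 9 after lowess, and of 55 splicing factors 32 were higher and 2 lower, but 9 and 12 after lowess.

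**Figure D5:**
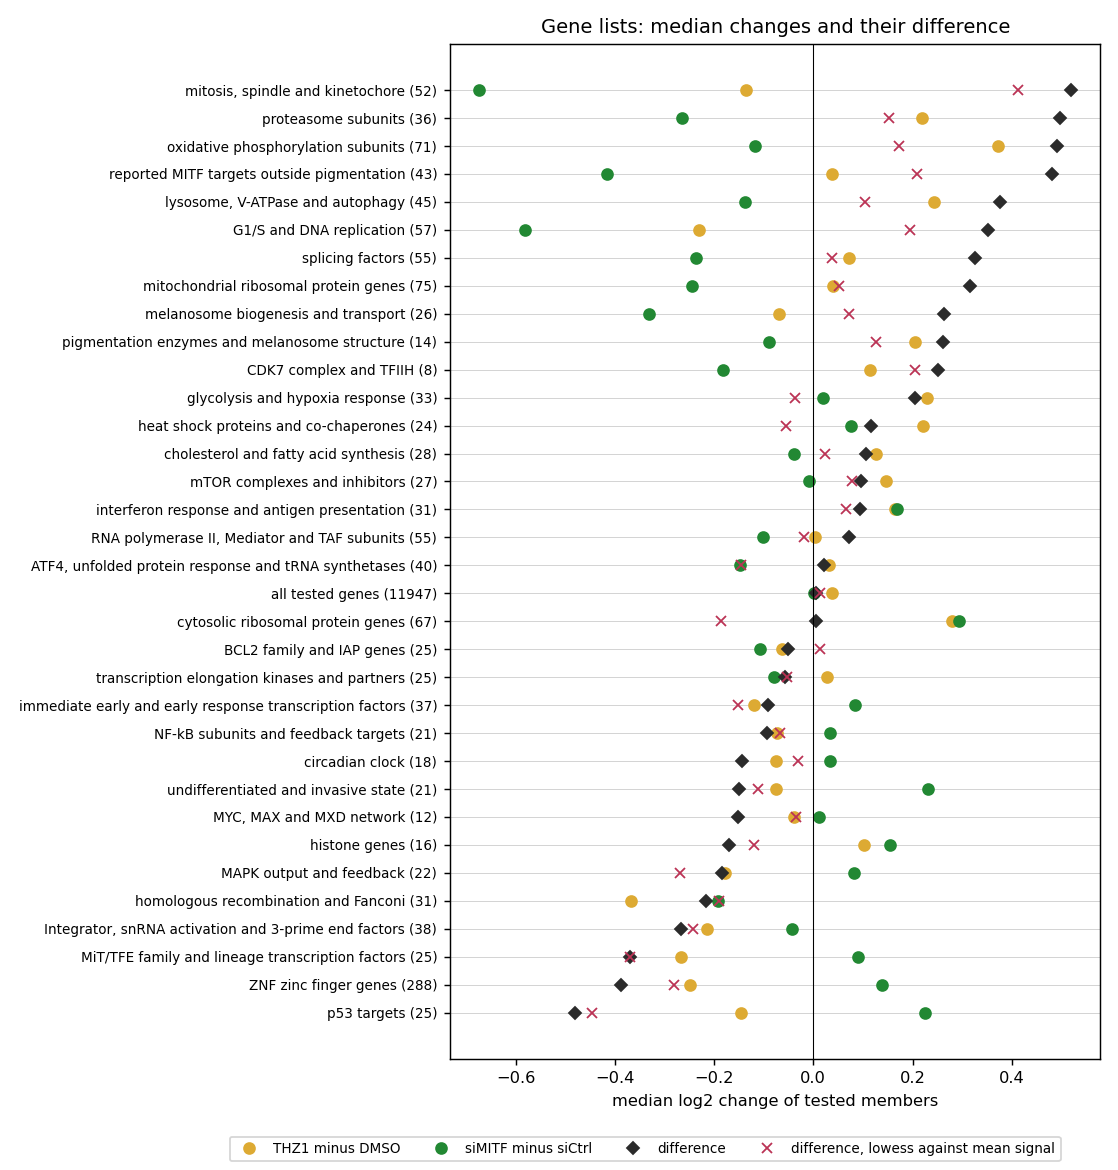
Median log2 change of the tested members of each gene list (number in brackets) with THZ1 (gold) and siMITF (green), their difference (dark diamonds) and the difference after lowess scaling against mean signal (crosses). Mitosis genes keep a positive difference (0.52 and 0.41 after lowess), p53 targets a negative one (-0.48 and -0.45, but -0.05 on the deposited scale), and oxidative phosphorylation shrinks from 0.49 to 0.17.

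Stress and signalling lists showed opposed members without a common direction. DDIT4, an mTOR inhibitor induced by stress, had signals of 456 and 574 with DMSO, 222 and 359 with THZ1, 370 and 507 with siCtrl, and 790 and 693 with siMITF. The groups did not overlap in either comparison, and DDIT4 fell by 0.62 with THZ1 and rose by 1.38 with siMITF, a difference of -2.0 (adjusted p = 1.7e-05). In the 27 tested mTOR genes, where DDIT4 and DEPTOR were the lowest, 10 had a higher and 7 a lower difference (3 and 5 after lowess). TBC1D7, a subunit of the tuberous sclerosis complex, changed by 0.27 and -0.60. Of 33 glycolysis and hypoxia genes 13 were higher and 9 lower (6 and 11 after lowess): SLC2A1, the glucose transporter GLUT1, and ANKRD37 changed by -0.33 and 0.62 and by -0.45 and 0.58, ADM, adrenomedullin, fell with siMITF alone (-0.84), and MXI1, a MYC antagonist, changed by 0.44 and -0.23. Among 40 genes of ATF4, the unfolded protein response and tRNA synthetases 12 were higher and 11 lower (4 and 14 after lowess), with SHMT2 and EDEM1 opposed (0.21 and -0.61, and 0.38 and -0.66). In 18 clock genes CRY1 and NR1D2 were opposed (0.27 and -0.67, and 0.22 and -0.47), and BMAL1 and PER1 rose with siMITF alone (0.48 and 0.61). MYC fell by 0.32 with THZ1 beside 0.04 with siMITF, and its difference of -0.36 (adjusted p = 0.034) was 0.069 on the deposited scale. MGA, a MAX partner, changed by -0.43 and 0.57, and MXD4 rose by 1.02 with siMITF alone. After lowess MYC, HPS6, BLOC1S5, PHLDA1, CCND1, TAF4 and CHEK1 were opposed, MXD4 was a shared increase, NDUFS7, MXI1 and ZNF518B were called only with THZ1, SLC24A5, SHMT2 and TBC1D7 only with siMITF, and DUSP4 with neither.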

How the data were processed

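RNA from SK-MEL-5 cells was measured on 8 Affymetrix arrays in 4 groups of 2, from 100 ng of RNA per array with ERCC spike-in RNA in proportion to cell number, per the labels' protocols. The authors summarised probe sets with MAS5 (version not given), per the submitters' processing notes. Each deposited value is a linear intensity. The design text calls it cell-number normalized, and the calculation is not given in the sources used here. Arrays carry no read depth, and their number limits the precision.

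The 49495 probe sets comprised 45278 with a single gene symbol, 1333 with more and 2682 without, besides 100 for ERCC RNA and 102 further controls. Gene IDs of 45208 matched the RefSeq gene table and 70 kept the platform's symbol. The brightest probe set stood for each gene, which was tested at or above the 40th percentile of mean signal. Names ending in _x_at (1587 tested) or _s_at (2260 tested) mark probe sets that may also detect similar transcripts. Values were taken as log2(signal + 16), the median deviation of tested genes was subtracted from each array, and 1 model with 4 group means was fitted with limma 3.58.1 in R 4.3.3 (empirical Bayes, Benjamini-Hochberg over 11947 genes, adjusted p under 0.05, median SE 0.084 for a change and 0.119 for the difference). The fit was also run on simulated arrays with few changed genes and no trend with brightness, so that run does not bear on the trend.

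The 8 named genes of a class had the largest absolute difference, or for shared classes the largest smaller change, with treated arrays beyond their controls after centring and other probe sets of the same sign (ZNF367, SSH1 and CSMD1 were passed over). Up to 4 members of each list had the lowest adjusted p of the difference, and MITF and CDK7 were always named. The comparison, classes and lists were chosen with earlier results of these data known. Replicate numbers did not pair the arrays: deviations of same-numbered arrays correlated at 0.11 (drug) and -0.18 (siRNA). Pseudocount, filter, probe set choice, centring, scaling, variance model, replicate block and leaving out each array were varied.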

Additional observations from a re-analysis of the deposited data

How the results depend on the processing

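The called differences numbered 4966 (51.5% higher). They came to 9014 of 45278 when every probe set was tested on its own (67.6% higher) and to 1288 with no centring (91.2% higher). The higher share was 61.4% with no low-signal filter and 36.7% with quantile normalization. Opposed genes, 1129, came to 273 with no low-signal filter, 441 with every probe set on its own, 14 with no centring and 739 with own variances in place of empirical Bayes. Shared genes, 1186, came to 765 with no centring and 766 with own variances. THZ1-specific genes, 1520, came to 834 with no filter and 78 with no centring. siMITF-specific genes, 1812, came to 6330 with every probe set on its own and 1178 with no centring. Leaving out 1 array at a time gave 3900 to 4719 differences, 645 to 970 opposed, 710 to 1040 shared, 1108 to 1692 THZ1-specific and 1241 to 1969 siMITF-specific genes. The replicate block gave 4865 differences and 1009 opposed, 1069 shared, 1511 THZ1-specific and 1852 siMITF-specific genes, and it moved no count by over 1.5 times. Crossing the numbers of the siRNA arrays gave 5164 differences. With no centring 3 called named differences turned sign, to 0.0019 for CDK7, 0.069 for MYC and 0.036 for OSGIN1, all uncalled there. No other setting run for the named genes turned a called difference. Differences of named genes uncalled in the main fit also turned sign, 5 with quantile normalization, 4 after lowess and 3 with no centring. BNIP3 went from 0.012 to -0.28 after lowess and was called there (limma adjusted p = 0.037). The named genes were not refitted with every probe set on its own, separately within each set of arrays or with the crossed block. Other probe sets had the opposite sign for several named genes, among them SOX10, ERBB3, INTS6, C21orf91, CSTF3, PHLDA1, CCND1, GTF2H1, BIRC5 and NR1D2. The lowess scaling and the crossed block were added after seeing the data. With 2 arrays per group the spread rests on 4 residual degrees of freedom and on 5.97 prior ones that empirical Bayes takes from all tested genes. The 6297 genes below the tested range (differences of -1.91 to 0.83, median -0.29) have signals near background.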

Other observations

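Relative to the median gene, the largest increases with siMITF also passed the test with THZ1, at a much smaller size. These genes were singled out after their values were seen. MATN2, a matrix protein, had signals of 34.9 and 43.9 with siCtrl, 210 and 149 with siMITF, 45.2 and 48.5 with DMSO, and 44.4 and 66.4 with THZ1. The siRNA groups stood apart and the drug signals overlapped before centring. MATN2 changed by 2.44 with siMITF and 0.37 with THZ1, a difference of -2.07 (limma adjusted p = 1.06e-05, 2 arrays per group). SERPINA3, an acute phase protease inhibitor, changed by 2.13 and 0.23, CHGB, a secretory granule protein, by 2.08 and 0.28, and PTPRZ1, a receptor phosphatase of glia and their precursors, by 1.96 and 0.52. On the deposited scale their siMITF changes were 1.81 for MATN2, 1.49 for SERPINA3, 1.45 for CHGB and 1.33 for PTPRZ1. Each THZ1 change is 0.20 lower there, which takes away most of the SERPINA3 and CHGB increases with THZ1.

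Lists not described above were mixed. Of 24 tested heat shock genes, the difference was higher for 7 and lower for 4, but 1 and 6 after lowess scaling, with DNAJB1, a co-chaperone, lower with THZ1 alone (-0.59). Of 28 genes of cholesterol and fatty acid synthesis 9 were higher and 3 lower (4 and 4 after lowess), with IDI1, an isomerase of the pathway, lower with siMITF alone (-0.88). Of 31 interferon and antigen presentation genes 9 were higher and 5 lower (7 and 4 after lowess), with IRF9, a subunit of the interferon-activated factor, opposed (-0.80 and 0.36). Of 21 NF-kB genes 3 were higher and 7 lower (2 and 7 after lowess), with SOD2, the mitochondrial superoxide dismutase, opposed the other way (0.58 and -0.35). Of 16 histone genes 5 were higher and 5 lower (2 and 7 after lowess), with H2AZ1 and H2AZ2, variants made throughout the cell cycle, opposed (0.24 and -0.32, and 0.34 and -0.39) but lower with siMITF alone after lowess (THZ1 changes of -0.07 and 0.12). Of 25 BCL2 family and IAP genes 6 were higher and 7 lower (5 and 11 after lowess), with FADD, an adaptor of death receptors, lower under both (-1.59 and -0.34).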
